A study of Mus musculus with 9 samples.

Results

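This account covers 10 genes of NF-kB signalling in the mouse retina: the subunit genes Nfkb1, Nfkb2, Rela and Relb, the inhibitor genes Nfkbia and Nfkbib, the A20-binding inhibitor genes Tnip1 and Tnip2, and the IL-1 receptor kinase genes Irak1 and Irak2. They were taken by name from a deposited table of 35397 genes, and each of the 10 symbols matched 1 row. The study compared retinas of wild-type mice (5 libraries, wild type 1 to 5) with retinas of db/db mice (4 libraries, db/db 1, 3, 4 and 5). The db/db strain carries a mutation that disables the signalling form of the leptin receptor in every cell, and its mice are obese as well as diabetic. Expression is in FPKM, that is, fragments scaled by gene length and library depth. The values gave nearly whole read counts with the merged length of all annotated exons of a gene. Levels compared between genes therefore depend on that length. The labels name the tissue and these 2 genotypes, and give no age, sex, strain background or treatment. They also do not say that the libraries are from separate animals, and p-values then measure only the spread between these libraries, which may be technical. The genes were chosen with the difference between these groups already in view. Their values and differences are therefore a description, and no p-value is given for them.

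NF-kB is a family of dimeric transcription factors that inhibitor proteins hold in the cytoplasm. When IL-1 binds its receptor, the adaptor MyD88 gathers IRAK kinases, which lead through TRAF6 and the IkB kinase to destruction of the inhibitors and entry of NF-kB into the nucleus. Several genes of the pathway, Nfkbia and Nfkb2 among them, are known targets of NF-kB themselves, and in the diabetic retina the pathway has been studied in Muller glia, microglia and vessels.

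Promoter sequence was compared for the genes that were higher in every db/db library (Nfkbia, Tnip2 and Irak2) and for Tnip1, the paralog of Tnip2 whose groups overlapped. Each line below gives the 250 bases before the RefSeq start site, 5′ to 3′ on the gene's own strand (GRCm38.p6, the assembly also called mm10), with capitals marking letters of the kappaB consensus, the 10-base site to which NF-kB dimers bind. The windows lie at chr12:55492648-55492897 on the minus strand (Nfkbia), chr5:34513980-34514229 on the minus strand (Tnip2), chr6:113638217-113638466 on the plus strand (Irak2) and chr11:54962941-54963190 on the minus strand (Tnip1).
Nfkbia: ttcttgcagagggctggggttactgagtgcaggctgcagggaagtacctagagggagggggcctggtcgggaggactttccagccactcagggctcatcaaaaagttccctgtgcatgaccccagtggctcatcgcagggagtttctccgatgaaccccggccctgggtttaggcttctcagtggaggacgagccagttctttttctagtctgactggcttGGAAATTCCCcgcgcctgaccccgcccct
Tnip2: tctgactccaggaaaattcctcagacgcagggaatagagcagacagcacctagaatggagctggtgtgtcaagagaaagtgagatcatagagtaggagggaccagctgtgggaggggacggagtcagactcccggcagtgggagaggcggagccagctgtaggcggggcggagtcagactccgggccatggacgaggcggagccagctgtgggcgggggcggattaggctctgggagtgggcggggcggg
Irak2: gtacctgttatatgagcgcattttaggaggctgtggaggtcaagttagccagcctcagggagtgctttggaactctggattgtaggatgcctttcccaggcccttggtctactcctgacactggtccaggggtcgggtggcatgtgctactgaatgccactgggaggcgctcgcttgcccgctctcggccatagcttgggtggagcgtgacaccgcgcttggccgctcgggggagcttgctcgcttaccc
Tnip1: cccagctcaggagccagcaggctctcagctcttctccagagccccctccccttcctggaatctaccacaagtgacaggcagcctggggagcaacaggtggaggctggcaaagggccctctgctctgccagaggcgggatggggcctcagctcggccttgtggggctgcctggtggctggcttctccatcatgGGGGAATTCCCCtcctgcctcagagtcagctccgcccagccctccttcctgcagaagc
The Nfkbia window held 1 match, GGGAATTTCC on the opposite strand, 29 to 20 bases before the start. The Tnip1 window held 3 matches, which overlap each other in the palindrome GGGGAATTCCCC and together span 58 to 47 bases before the start. No match lay in the windows of Tnip2 and Irak2, which says only that these letters are not there.

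The promoter table matched 8 of the 10 genes, in 11 windows. Matches to the kappaB consensus on either strand lay in 7 of the 11 windows, which belong to 4 genes (Nfkb2, Nfkbia, Tnip1 and Irak1), while 7.25% of 32851 promoter windows of the same length held one. Nfkb2 has 3 of the 7 and Irak1 2 that overlap almost fully, so the windows are not separate cases. These matches are letters in a sequence, and binding was not measured.

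The libraries differed in ways that bear on every gene below. The size of the FPKM steps gave depths of 36.4 M to 48.1 M reads per library. At that depth Tnip2 rested on 1784 to 2793 reads and Nfkbia on 851 to 1571, while Relb rested on 64 to 115 and Nfkb2 on 105 to 150. Library db/db 1 stood apart: the SD of its log2(FPKM + 1) differences from the wild-type mean was 0.55 over 14588 genes, against 0.20 to 0.28 in the other db/db libraries and 0.13 to 0.14 in wild type. In db/db 1 the summed level of 6 pigment epithelium markers was 349 FPKM, against 98.9 to 153 FPKM in wild type. That of 5 ganglion cell markers was 384 FPKM, against 235 to 271 FPKM. For 7 blood and leukocyte markers it was 54.1 FPKM, against 11.8 to 20.6 FPKM, and the 5 leukocyte markers averaged under 1 FPKM. Sums of amacrine cell (330 FPKM, against 231 to 249 FPKM) and pericyte and smooth muscle markers (39.2 FPKM, against 26.2 to 29.5 FPKM) were among the others above wild type. The bipolar cell sum was lower, at 189 FPKM against 194 to 206 FPKM. Such sums mainly follow their most abundant genes: Hba-a1 and Hbb-bs for blood, Ttr for pigment epithelium and Sncg for ganglion cells. Differences from the wild-type mean correlated with transcript GC content at r = 0.18 to 0.50 in the db/db libraries and at -0.12 to 0.13 in wild type, across genes. Each wild-type library is part of that mean, so wild-type differences cancel out for each gene. The SD and r of wild type are therefore in part fixed by the method, while those of db/db also hold any group difference. The differences of the 10 genes are given with and without db/db 1, and the part of these differences between libraries in the results was not tested.

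Markers of rods, cones and bipolar cells, the defining cells of the retina, were expressed in all 9 libraries, with 5 rod markers summing to 10123 to 10904 FPKM in wild type and 10551 to 12046 FPKM in db/db. Of the 10 microglia and macrophage markers, 4 had a mean of 1 FPKM or more, and none was at 0 in every library. Their sum ran from 18.7 to 25.8 FPKM in wild type and from 18.4 to 20.8 FPKM in db/db. For the 7 Muller glia markers, none at 0 in every library, the sums of the groups did not overlap. They ran from 1107 to 1141 FPKM over the db/db libraries, against 1030 to 1072 FPKM over the wild-type ones. Glul, the most abundant, had the largest rise in FPKM, from a wild-type mean of 617 FPKM to a db/db mean of 698 FPKM (limma adjusted p = 0.178). Mean levels of Aqp4 (15.9 and 18.1 FPKM) and Vim (25.7 and 30.3 FPKM) were also higher in db/db. In proportion to their levels, these rises were no smaller than that of Glul. Mean levels of Rlbp1, Slc1a3, Kcnj10 and Dkk3 were lower. None of the 7 was past an adjusted p of 0.05, and the markers did not move together. The part of Muller glia in the results below was not tested. In bulk tissue, a change in the number of cells of a type and a change in RNA per cell cannot be told apart.

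Levels in wild type spanned a wide range. Tnip2 (15.7 ± 0.825 FPKM, SD, n = 5) and Nfkbia (14.4 ± 1.71 FPKM, SD, n = 5) were highest, and they did not differ beyond their spread. Rela (10.5 ± 0.713 FPKM, SD, n = 5), Tnip1 (9.03 ± 0.951 FPKM, SD, n = 5) and also Irak1 (8.66 ± 0.365 FPKM, SD, n = 5) came next, with ranges that overlapped from each to its neighbour. Nfkbib, Irak2 and Nfkb1 followed at 6.52, 3.70 and 2.55 FPKM, each below all 5 wild-type values of the gene before it. Relb and Nfkb2 were lowest, at 0.616 and 0.596 FPKM, and could not be ordered. Of the canonical subunits, Rela exceeded Nfkb1 in FPKM in every library, while both non-canonical subunits stood below 1 FPKM. The gap between Rela and Nfkb1 depends on the merged exon length, 3.07 kb for Rela and 12.06 kb for Nfkb1. In reads they were nearer, at 1318 to 2067 for Rela and 1157 to 1562 for Nfkb1 over all libraries. The place of Nfkb1 in the order depends on the same length.

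**Figure D1:**
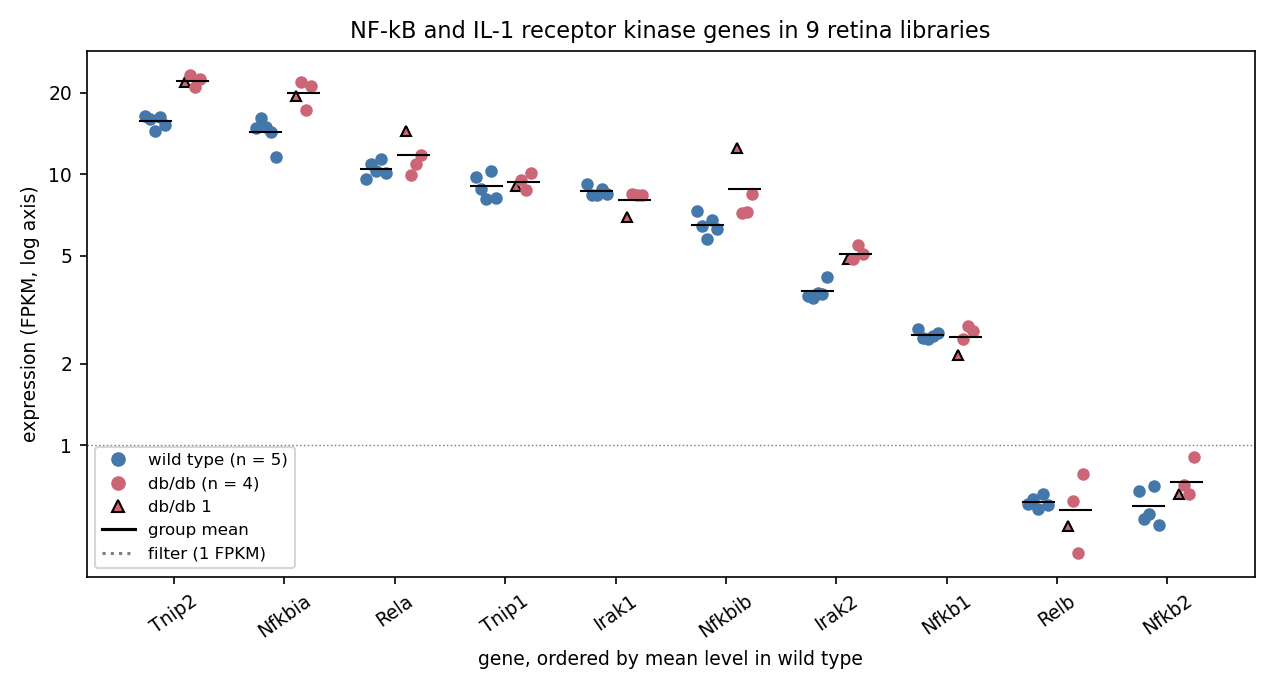
Expression of the 10 genes in FPKM (log axis) in 5 wild-type and 4 db/db libraries. Points are libraries, bars are group means, and triangles mark db/db 1. Groups are separate in Tnip2, Nfkbia and Irak2, and db/db 1 is the highest db/db value in Rela and Nfkbib and the lowest in Irak1 and Nfkb1.

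Among the subunits, none had groups that were separate. Rela, on chromosome 19 (5637483 to 5648130, plus strand, mm10), encodes p65, the subunit that carries the activation domain. It stood at 9.58, 10.9, 10.3, 11.4 and 10.1 FPKM in wild type 1 to 5 and at 14.5, 9.93, 10.9 and 11.8 FPKM in db/db 1, 3, 4 and 5. The highest value was that of db/db 1, and 2 of the other 3 db/db libraries lay inside the wild-type range. The difference on the log2(FPKM + 1) scale, db/db minus wild type, was 0.15 (SE 0.10), and 0.05 (SE 0.07) without db/db 1.

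Nfkb1, on chromosome 3 (135584655 to 135691547, minus strand), encodes the precursor p105, from which p50, the usual partner of p65, is made. Its values were 2.69, 2.49, 2.47, 2.52 and 2.58 FPKM in wild type 1 to 5 and 2.16, 2.46, 2.76 and 2.63 FPKM in db/db 1, 3, 4 and 5. Library db/db 1 was lowest and db/db 4 highest of all 9, so the groups overlapped. The difference of -0.02 (SE 0.07) had a 95% interval of -0.17 to 0.13 on the log2 scale, and it was 0.03 without db/db 1 and -0.06 without db/db 4.

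The non-canonical subunits were measured from few reads and lay below the minimum of 1 FPKM set for testing. Nfkb2, on chromosome 19 (46304320 to 46312385, plus strand), encodes p100, the precursor of p52. It stood at 0.679, 0.533, 0.555, 0.707 and 0.507 FPKM in wild type 1 to 5 and at 0.657, 0.711, 0.657 and 0.900 FPKM in db/db 1, 3, 4 and 5. Its groups overlapped, with a difference of 0.12 (SE 0.06), which was 0.07 without db/db 5 and 0.26 with a pseudocount of 0.1. The gene shares 299 exonic bases with Psd, a gene of the opposite strand at a mean of 52.4 FPKM, and 531 with the non-coding AC114539.1 (0.732 FPKM). Without knowledge of the strand counted, their reads cannot be told apart there. Relb, on chromosome 7 (19606217 to 19629438, minus strand), encodes the partner of p52. It was even in wild type, at 0.608, 0.634, 0.581, 0.660 and 0.598 FPKM. In db/db 1, 3, 4 and 5 it was uneven, at 0.502, 0.619, 0.400 and 0.781 FPKM, on both sides of the wild-type range. Its lowest value rested on 64 reads, whose counting error is 12.5% if reads are independent, while its coefficient of variation in db/db was 28.4%. The difference was -0.04 (SE 0.07), -0.12 with a pseudocount of 0.1, -0.10 without db/db 5 and 0.01 without db/db 4.

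Of the inhibitors, Nfkbia was higher in every db/db library and Nfkbib was not. Nfkbia, on chromosome 12 (55489410 to 55492647, minus strand), encodes IkB-alpha, which is made anew when NF-kB is active and ends its action. Its values were 14.9, 16.2, 14.9, 14.3 and 11.6 FPKM in wild type 1 to 5 and 19.5, 21.9, 17.2 and 21.2 FPKM in db/db 1, 3, 4 and 5. The lowest db/db value, that of db/db 4, lay above the highest wild-type value. The ratio of group means was 1.39 and the difference 0.45 (SE 0.10). Leaving out db/db 1 gave 0.46 (SE 0.11), and correction for GC content with db/db 1 left out gave 0.42.

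Nfkbib, on chromosome 7 (28758251 to 28767512, minus strand), encodes IkB-beta, a second inhibitor of the same structure. It stood at 7.31, 6.42, 5.78, 6.79 and 6.29 FPKM in wild type 1 to 5 and at 12.5, 7.21, 7.24 and 8.46 FPKM in db/db 1, 3, 4 and 5. Library db/db 1 was far above the rest, while db/db 3 and db/db 4 lay just under the highest wild-type value. The difference was 0.36 (SE 0.14) with all libraries, 0.20 (SE 0.08) without db/db 1 and 0.09 with correction for GC content as well. Its exons overlap those of Sirt2 (mean 23.1 FPKM, opposite strand) by 42 bases and those of Ccer2 (mean 0.412 FPKM, opposite strand) by 314 bases, and reads there may not be separate.

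The A20-binding inhibitors also differed from each other. Tnip2, on chromosome 5 (34496087 to 34513991, minus strand), encodes ABIN-2, which binds the ubiquitin-editing enzyme A20 and stabilises the kinase made from Map3k8. Its values were 16.5, 16.0, 14.5, 16.3 and 15.3 FPKM in wild type 1 to 5 and 22.0, 23.4, 20.96 and 22.6 FPKM in db/db 1, 3, 4 and 5. The groups were separate, and the spread within each was small, with a coefficient of variation of 5.25% in wild type and 4.56% in db/db. The ratio of means was 1.41. The difference was 0.48 (SE 0.06), the same to 2 decimals without db/db 1, and 0.42 with correction for GC content and db/db 1 left out.

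Tnip1, on chromosome 11 (54910785 to 54962917, minus strand), encodes ABIN-1, which also binds A20 and limits NF-kB. It stood at 9.75, 8.84, 8.12, 10.3 and 8.19 FPKM in wild type 1 to 5 and at 9.08, 9.53, 8.76 and 10.1 FPKM in db/db 1, 3, 4 and 5. All 4 db/db values lay inside the wild-type range. The difference was 0.05 (SE 0.08), with a 95% interval of -0.13 to 0.23, and it ran from 0.02 to 0.09 with 1 library left out. A20 itself, encoded by Tnfaip3 and named after its values were seen, averaged 55.8 ± 3.001 FPKM (SD, n = 5) over wild-type libraries and 58.0 ± 2.33 FPKM (SD, n = 4) over db/db libraries, with a log2 difference of 0.06 (limma adjusted p = 0.630).

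The IRAK kinases showed the same contrast between relatives. Irak2, on chromosome 6 (113638467 to 113695026, plus strand), encodes a kinase-like protein that sustains signalling from the IL-1 and Toll-like receptors. Its values were 3.55, 3.50, 3.64, 3.62 and 4.18 FPKM in wild type 1 to 5 and 4.87, 4.87, 5.47 and 5.09 FPKM in db/db 1, 3, 4 and 5. Wild type 5 was the highest of its group and still lay below every db/db value. The ratio of means was 1.37 and the difference 0.37 (SE 0.06), with 0.39 (SE 0.06) without db/db 1 and 0.35 with correction for GC content as well.

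Irak1, on chromosome X (74013914 to 74023918, minus strand), encodes a kinase that joins the receptor complex after IRAK4 and is degraded once active. It stood at 9.22, 8.39, 8.37, 8.84 and 8.49 FPKM in wild type 1 to 5 and at 6.97, 8.47, 8.40 and 8.40 FPKM in db/db 1, 3, 4 and 5. The db/db libraries other than db/db 1 lay close together at the low end of the wild-type range. The difference was -0.10 (SE 0.07), and -0.04 (SE 0.04) without db/db 1.

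**Figure D2:**
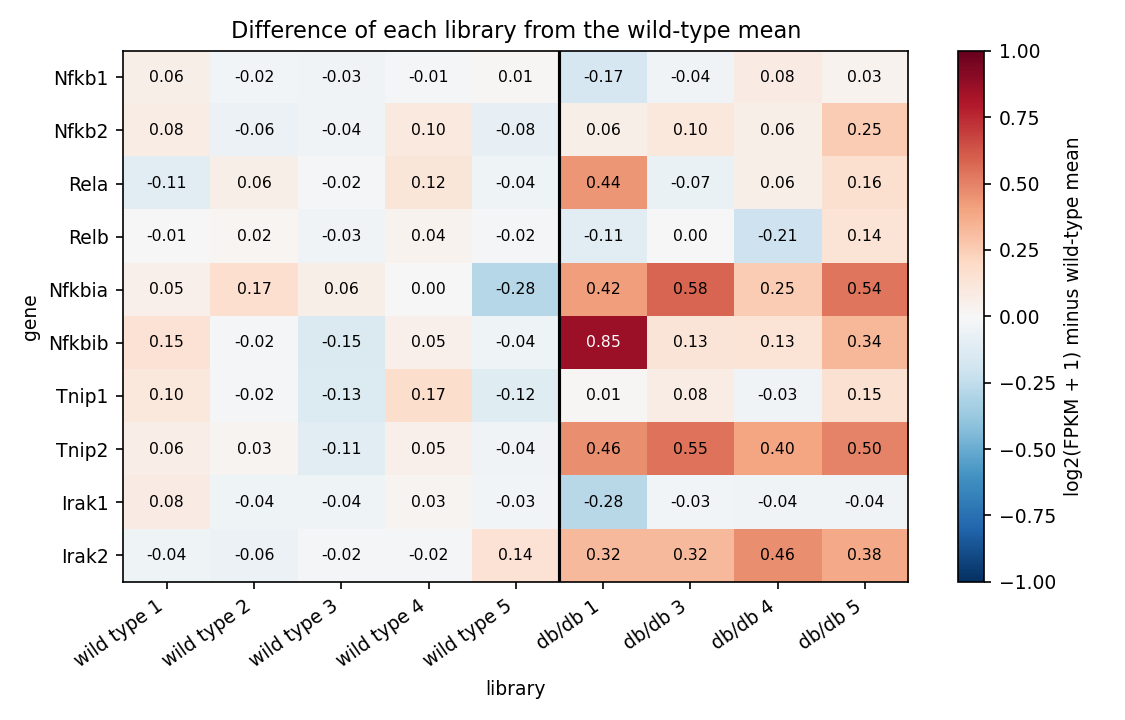
Difference of each library from the wild-type mean on the log2(FPKM + 1) scale, for the 10 genes (rows) in 9 libraries (columns). Nfkbia, Tnip2 and Irak2 have their lowest db/db values at 0.25, 0.40 and 0.32, while Nfkbib (0.85) and Rela (0.44) are highest in db/db 1.

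The limma fit covered 14588 genes, 8 of the 10 described here among them, since Nfkb2 and Relb lay below the minimum level. Past an adjusted p of 0.05 lay 0.500% of all tested genes: 34 were higher in db/db (0.233%) and 39 lower, a split that became 21 and 15 with columns scaled to equal sums and 5 and 1 with GC correction. Of the 8 tested genes, 2 were past it (Tnip2 and Irak2), both higher. In 3 of the 8 (Nfkbia, Tnip2 and Irak2) every db/db value exceeded every wild-type value, as in 5.20% of all tested genes. Since the genes were chosen on this contrast, nothing is read from these counts. The median log2 difference was 0.26 over the 8 genes and 0.0035 over all tested genes, and without db/db 1 the medians were 0.13 and -0.02. Over all 10 genes, Nfkb2 and Relb included, it was 0.13.

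The counts depended on single libraries. Without db/db 1, 3 of the 8 genes were past the threshold and higher, with Nfkbia added, beside 4.72% of all tested genes, and the same 3 had separate groups beside 9.63%. With db/db 1 left out and GC content corrected, Tnip2 and Irak2 were past it, beside 2.61%. Without db/db 4, only Tnip2 was past it. Without wild type 1, 2, 3, 4 or 5, db/db 3 or db/db 5, 0 of the 8 were, in fits where 4 to 9 genes in all passed. Over 22 alternatives the difference of Nfkbia ran from 0.38 to 0.56, that of Tnip2 from 0.40 to 0.52 and that of Irak2 from 0.31 to 0.45.

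**Figure D3:**
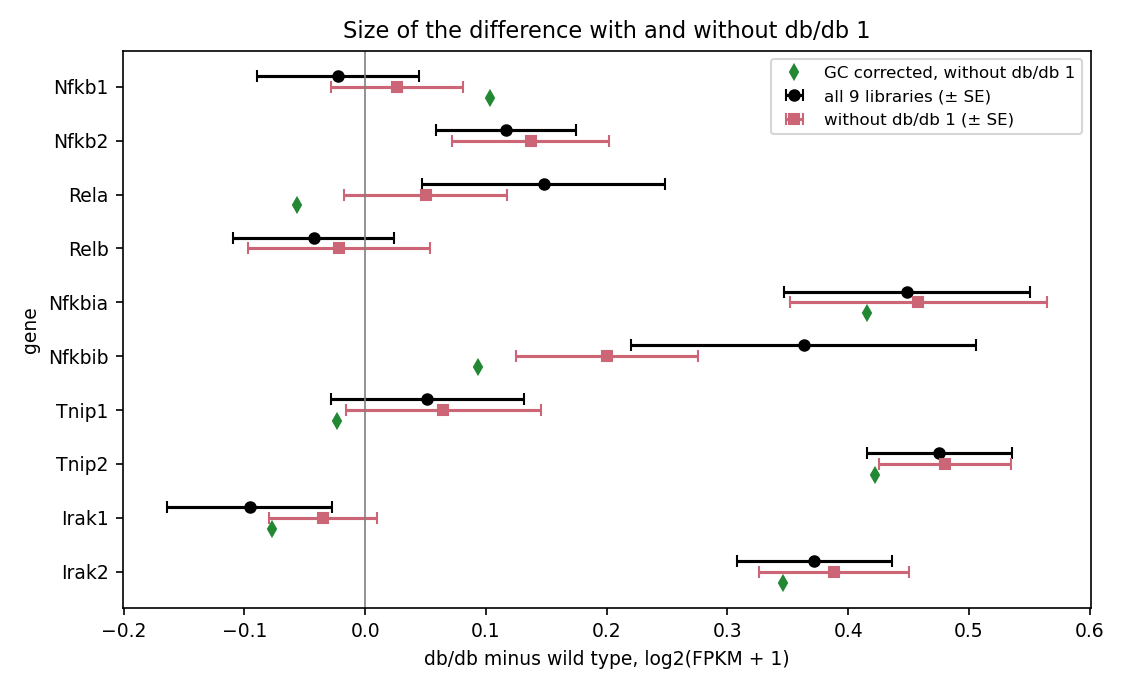
Difference between db/db and wild type on the log2(FPKM + 1) scale for the 10 genes with all 9 libraries (circles), without db/db 1 (squares) and with GC correction as well (diamonds, for the 8 tested genes); bars on circles and squares are SE. Nfkbia, Tnip2 and Irak2 keep their size, while Nfkbib moves from 0.36 to 0.20 and Rela from 0.15 to 0.05 without db/db 1.

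The genes varied together in separate groups. Tnip2 and Nfkbia were most like each other over the 9 libraries (Pearson r = 0.89 on log2(FPKM + 1), and 0.52 with group means removed). Irak2 was most like Tnip2 (r = 0.87), but with group means removed the correlation was -0.53, so the likeness lay between the groups and not within them. Rela and Nfkbib (r = 0.84) and Nfkb1 and Irak1 (r = 0.82) were alike through db/db 1, and without it the values were 0.36 and 0.30. Nfkb2 and Tnip1 varied together within the groups (r = 0.83, and 0.88 with group means removed). These points share libraries, depth and GC content, and the correlations are descriptions without a test.

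Among the other 14587 tested genes, those most like Nfkbia over the 9 libraries were P2rx2, an ATP-gated channel gene (r = 0.94), the kinase gene Src (0.94), Vil1 (0.93), Gm25776 (0.93) and Ccdc85c (0.93). Those most like Tnip2 were Hap1 (0.98), the matrix protease gene Mmp14 (0.97), the carbonic anhydrase gene Car5b (0.97), Dtx1 (0.97) and Nup133 (0.97). For Rela they were Dnal4 (0.98), Paqr4 (0.97), Yif1a (0.97), Yif1b (0.96) and Pkig (0.96), and these rest in part on db/db 1, without which their r was 0.86 to 0.92. Without that library r was 0.92 to 0.94 for the genes like Nfkbia and 0.97 to 0.98 for those like Tnip2. With group means removed and all 9 libraries kept, r was 0.74 to 0.90 for the genes like Nfkbia and 0.47 to 0.71 for those like Tnip2. Part of these likenesses therefore lay between the groups. With so many genes and 9 libraries, the highest correlations are large whatever the gene, and they are given as a description.

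The rest of the pathway was examined in 8 lists of 111 genes, and 59 of them were expressed highly enough to be tested. With limma none of the 59 was past the threshold in either direction, beside 0.233% of all genes higher and 0.267% lower. An unadjusted p under 0.05 was reached by 12 of the 59 (20.3%), beside 19.3% of all tested genes. Their log2 differences were above 0 in 28 and below 0 in 31, with a median of -0.0044. Without db/db 1, 2 genes rose and 1 fell, beside 4.72% higher and 5.84% lower of all genes. Those that rose were Sharpin (0.16, limma adjusted p = 0.0364, and 0.0364 to 0.454 over the alternatives) and Trim8 (0.27, adjusted p = 0.0243, and 0.0243 to 0.464). The gene that fell was Ube2n, which encodes the ubiquitin-conjugating partner of TRAF6 (-0.23, adjusted p = 0.0343, and 0.0343 to 0.917) and was named after its values were seen.

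Ligands and receptors were mostly near or below the limit of testing. Of 15 IL-1 family ligands, receptors and decoys, 10 fell below 1 FPKM. Il1b, which encodes the main IL-1 ligand, was at 0.0219 to 0.0488 FPKM in wild type and 0 to 0.0227 FPKM in db/db. Tnf was at 0 to 0.0510 FPKM in wild type and was listed at 0 in all 4 db/db libraries. The chemokine gene Cxcl10 went the other way, at 0 to 0.0200 FPKM in wild type and 0.0399 to 0.144 FPKM in db/db. Il1b, Tnf and Cxcl10 were named after their values were seen. At levels so near 0 very few reads set a value, and nothing is read from these genes. All 5 tested genes of the IL-1 family list had differences below 0 and none passed. The alarmin gene Il33 averaged 21.7 ± 2.33 (SD, n = 5) and 18.1 ± 1.86 FPKM (SD, n = 4), a difference of -0.25 (limma adjusted p = 0.211). For Il1rap, the shared co-receptor, the averages were 1.48 ± 0.0988 (SD, n = 5) and 1.11 ± 0.128 FPKM (SD, n = 4), a difference of -0.23 (adjusted p = 0.122). Of 11 genes in the Toll-like receptor list only the adaptor gene Ticam1 was tested (0.0082, adjusted p = 0.965).

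Of 13 Toll/IL-1 adaptor and ubiquitin ligase genes 10 were tested, and of 11 IkB kinase genes and kinases upstream 9 were, and none passed. Those below 1 FPKM were Irak4 (0.540 FPKM in wild type), Irak3, Ube2v1, Map3k8 and Ikbke. Of the 10 tested adaptor and ligase genes, 5 were above 0 and 5 below. The smallest p-values belonged to Peli3, a ligase that modifies IRAK proteins (38.6 ± 2.91, SD, n = 5, and 43.3 ± 2.01 FPKM, SD, n = 4, difference 0.16, limma adjusted p = 0.237), and Ecsit (0.30, adjusted p = 0.339). The Ecsit difference was 0.10 without db/db 1, in which it stood at 21.5 FPKM. Of the 9 tested kinase genes, Ikbkg, the regulatory subunit of the IkB kinase, averaged 6.12 ± 0.258 (SD, n = 5) and 5.14 ± 0.364 FPKM (SD, n = 4), a difference of -0.21 (adjusted p = 0.108). Map3k14, the kinase of the non-canonical arm, had 0.22 (adjusted p = 0.202).

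In the TNF receptor branch 8 of 11 tested genes were above 0, led by Sharpin, of the linear ubiquitin ligase (0.28, limma adjusted p = 0.171), and Traf5 (0.17, adjusted p = 0.307). Without db/db 1 these were 0.16 and 0.09, and Traf5 was 0.30 with GC correction. Among 10 tested deubiquitinases and other negative regulators the smallest p-values were those of Trim8, a ubiquitin ligase also known to promote TAK1 activity (10.1 ± 0.631, SD, n = 5, and 12.3 ± 0.407 FPKM, SD, n = 4, difference 0.27, adjusted p = 0.0735), and Cyld (-0.15, adjusted p = 0.315, and -0.08 without db/db 1). The 3 tested of 7 other Rel subunit and IkB genes included Nkrf, a repressor (-0.16, adjusted p = 0.232), and Nfkbiz (-0.16, adjusted p = 0.429, and -0.07 without db/db 1).

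Known NF-kB target genes went in both directions. Of 24, 14 lay below 1 FPKM, most chemokines and adhesion molecules among them, and 6 of the 10 tested were above 0 and 4 below. With limma, 4 of the 10 had an unadjusted p under 0.05, beside 19.3% of all tested genes. These were Lcn2, Gadd45b and Ier3, which were higher, and Cflar, which was lower. None of the 10 was past an adjusted p of 0.05, and no set test was run. Gadd45b (0.40, adjusted p = 0.213) and Ier3 (0.39, adjusted p = 0.242) were named after their values were seen. Without db/db 1 their differences were 0.26 and 0.18. Lcn2, an iron-scavenging acute-phase protein gene, averaged 1.64 ± 0.288 (SD, n = 5) and 2.73 ± 1.03 FPKM (SD, n = 4), a difference of 0.46 (limma adjusted p = 0.199). Cflar, which encodes an inhibitor of caspase-8, averaged 3.35 ± 0.292 (SD, n = 5) and 2.64 ± 0.318 FPKM (SD, n = 4), a difference of -0.26 (adjusted p = 0.135). The median of the list was 0.03 on the log2 scale. With GC correction and db/db 1 left out, differences of several named pathway genes were smaller by over 1.5 times: 0.26 for Lcn2, -0.13 for Cflar, -0.12 for Il33 and Ikbkg, -0.09 for Il1rap, -0.07 for Nkrf and 0.16 for Trim8. With GC correction and all 9 libraries, Map3k14 was at 0.08 and Peli3 at 0.05.

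**Figure D4:**
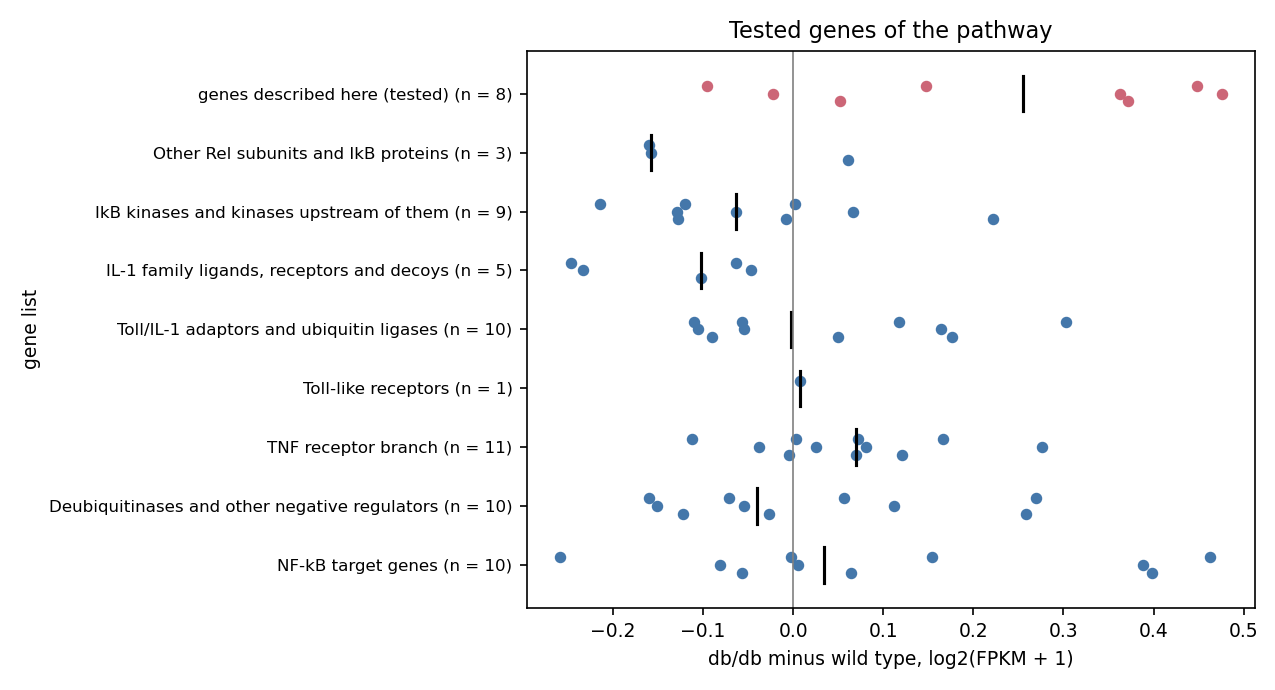
Log2 differences between db/db and wild type of the tested genes in each list, with medians as black bars; each point is a gene. The genes described here (top row) were chosen on this contrast, and the other lists lie around 0, from -0.26 (Cflar) to 0.46 (Lcn2).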

How the data were processed

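Retinal RNA was isolated with a column kit and sequenced from SMARTER libraries, per the labels' protocols. The authors deposited 1 table of FPKM values. Per the submitters' processing notes the genome was mm10. The aligner, counter, annotation and strand counted were not given in the sources used here. Columns named Control or DR were matched by number to wild-type or db/db samples, an inference from the names. Symbols, positions, exon lengths and GC content came from GENCODE M21 (34499 of 35397 identifiers), promoters from RefSeq (GRCm38.p6).

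Values were tested as log2(FPKM + 1), which understates changes of low genes, in the genes whose 9 libraries averaged 1 FPKM or more. The fit used limma 3.58.1 (R 4.3.3, trended eBayes, no covariate), and p-values were adjusted by Benjamini-Hochberg over all of them. The fit was tested on simulated data with independent noise in each gene. These held no outlying library and no GC trend, so the test cannot speak to either. Genes below the minimum have a plain least-squares difference and SE. Depth was read from FPKM times exon length, of which 99.1% to 99.2% of low values were whole within 0.1 read, and counting errors cover sampling of reads only. Of these low counts 62.6% to 68.6% per library were even, so reads may not be independent and counting errors may be larger than given. The cause was not tested.

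The 10 genes, the pathway lists, the rule for naming genes and the alternatives were chosen with earlier results of these data known. The rule took all 10 genes, each list's genes past the threshold (where none was, the 2 of smallest p), and the 5 genes most correlated with Nfkbia, Tnip2 and Rela. The labels do not say whether the numbers pair the samples. The deviations of same-numbered samples correlated at -0.18 to 0.13, which cannot decide it with so few pairs, and no pairing was used in the fit reported. Alternatives were no filter, a filter at 5 FPKM, a pseudocount of 0.1, eBayes without trend, robust eBayes, median-of-ratios, equal-sum and quantile scaling, array weights, a replicate block, libraries left out, and median correction in 20 bins of GC content. Figures were drawn with matplotlib 3.10.9.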

Additional observations from a re-analysis of the deposited data

Results flagged for a closer look

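In db/db 1, Irak1 stood at 6.97 FPKM, far below the other 3 db/db libraries, which lay between 8.40 and 8.47 FPKM. In wild type 5, Irak2 stood at 4.18 FPKM, above the other wild-type libraries at 3.50 to 3.64 FPKM. Both values were set apart by Dixon's ratio, the gap to the nearest value over the group's range (0.955 and 0.796). In all, 20 groups of values were examined, and chance alone sets apart a value in about 1 of 20. The difference of Irak2 was 0.41 without wild type 5, and that of Irak1 was -0.04 without db/db 1.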

How the results depend on the processing

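The count of all genes past the threshold moved widely: 34 higher and 39 lower as reported, 7 and 2 with no filter, 17 and 13 with a filter at 5 FPKM, 21 and 15 with equal sums, 550 and 656 with array weights, 289 and 254 when db/db 1 and 4 were both left out, 5 and 1 with GC correction, and 378 and 343 with GC correction and db/db 1 left out. With 1 library left out at a time it ran from 3 to 688 higher and from 1 to 852 lower. With the replicate block it was 2 higher and 0 lower. Only number 1 of the 4 shared numbers matched its own partner best, and whether the numbers pair the samples is unknown. Nothing is therefore read from the block about the size of any difference. Of the pathway genes outside the 10, 0 were higher and 0 lower as reported, 1 and 1 with array weights (Trim8 and Ube2n), 1 higher with GC correction and db/db 1 left out (Peli1, named after its values were seen), and 0 to 2 higher and 0 to 1 lower with 1 library left out.

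Of 214 values of the 10 genes under the 22 alternatives, 8 moved by more than the pooled SD between libraries. Tnip2 was past the threshold in 12 of 22 alternatives, Irak2 in 8 of 21 and Nfkbia in 3 of 22. In the 3 that included Nfkbia, from 543 to 1540 of 14588 genes were past it. A pseudocount of 0.1, eBayes without trend and robust eBayes passed 71, 82 and 65 genes in all. The reported fit passed 73, so these are hardly separate checks. The genes were chosen on this contrast, and nothing is read from these tallies. Equal sums, GC correction and the replicate block each left 0 of the 8 tested genes past the threshold. Differences of Nfkbia, Nfkbib, Nfkb2, Tnip2 and Irak2 stayed above 0 and that of Irak1 below 0 in the alternatives run, while Nfkb1 changed sign in 5, Tnip1 and Relb in 2 each and Rela in 1 (-0.06 with GC correction and db/db 1 left out). Ticam1 changed sign with equal sums (-0.0032) and GC correction (-0.11) and ran from -0.0358 to 0.0910 with 1 library left out, and Cyld did with GC correction and db/db 1 left out (0.0219). The cause of these changes was not tested. Relb and Nfkb2 had the fewest reads of the 10 genes, 64 to 150 per library.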
